A study of Mus musculus with 18 samples.

Results

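The 10 genes described here encode the proteins that load, cut and finish peptide hormones and neuropeptides inside dense-core vesicles. They are the prohormone convertases Pcsk1 and Pcsk2, the convertase inhibitor Pcsk1n, the finishing enzymes Cpe and Pam, and the granin family members Scg2, Scg3, Chga, Chgb and Vgf. Pcsk1 was picked from its rise with PLX5622 in these same libraries. The other 9 were chosen by function, with earlier results of these data known. Each symbol matched 1 of the 54547 Ensembl genes in the count files, and all 10 passed the filter on low counts, which 11051 genes passed in all.

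The tissue was medial prefrontal cortex, taken from C57BL6/J mice at postnatal day 100, with 9 libraries from animals on a control diet and 9 from animals whose chow held PLX5622 at 1200 mg/kg. PLX5622 inhibits CSF1R, the receptor on which microglia depend, and the series compares a cortex depleted of microglia with an undepleted one after alcohol drinking. Per the labels the diet ran for 21 days before 44 days of intermittent access to 15% ethanol, and tissue was taken 24 hours after the last exposure. That treatment text stands on control and PLX5622 samples alike, so the labels leave the treatment of a single animal unstated, and ethanol and water are not compared here. Sequencing was biased to the 3' end of transcripts, and libraries held 990136 to 1742680 counts. The tissue was not sorted into cell types, so fewer cells of a type and less RNA per cell cannot be told apart.

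The labels were checked against marker genes. All 12 tested microglial markers were lower with PLX5622, and their summed level was 411 to 578 CPM (counts scaled to library size) in controls and 109 to 195 CPM with PLX5622. Summed markers of neurons in general ran from 8842 to 9736 CPM in controls and from 8952 to 9712 CPM with PLX5622. None of the 10 neuronal markers was called in either direction. Of 8 striatal markers 6 were tested and none was called, and Drd2 and Adora2a had 17 and 14 counts over all 18 libraries. Of 6 choroid plexus markers only Ttr, which encodes transthyretin, could be tested. It ran from 0.637 to 10.8 CPM in controls and from 6.14 to 34.6 CPM with PLX5622, with 6 PLX5622 libraries above the highest control, at a log2 fold change of 1.49 ± 0.44 (SE, unadjusted p = 0.0036, adjusted p = 0.283). The tested markers of astrocytes (10, median 0.11), oligodendrocytes (9, median 0.05), endothelial and mural cells (10, median -0.05), glutamatergic neurons (10, median 0.04) and GABAergic neurons (9, median 0.01) had 0 called by diet. Of the 10 astrocyte markers 9 were above 0. The part of these cell types in the values that follow was not tested.

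Neuropeptides are made as long precursors. Convertases cut them after pairs of basic residues in the maturing vesicle, carboxypeptidase E trims the basic residues that remain, and peptidylglycine alpha-amidating monooxygenase amidates the new end. Granins help to form the vesicle and are themselves precursors of peptides. In neurons, transcription of Pcsk1, Scg2 and Vgf is known to respond to neuronal activity and cyclic AMP, in part through the cyclic AMP response element (CRE), which the factor CREB binds.

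Short stretches around the CRE are shown because the slopes of Pcsk1 and of the granin genes that hold the same element are set side by side further on. RefSeq promoter windows (GRCm38.p6, 250 bases before to 50 after a transcript start) were found for 8 of the 10 genes, in 9 windows. Cpe and Vgf had none and were not searched. The full CRE, TGACGTCA, reads the same on both strands. It was found in 3 of the 9 windows, those of Pcsk1, Scg2 and Chgb, and in 1.79% of all 32851 windows. The Pcsk1 stretch is chr13:75089769-75089796 on the plus strand, the Scg2 stretch chr1:79440077-79440104 on the minus strand and the Chgb stretch chr2:132781560-132781587 on the plus strand. Each is printed 5′ to 3′ along the gene, with the CRE in capitals.
Pcsk1: caggtagatcTGACGTCAagagatggct
Scg2: gctgagccggTGACGTCAgcgtggaatg
Chgb: ggctgctccgTGACGTCAgggctgagcg
The element began 78, 68 and 72 bases before the RefSeq start of Pcsk1, Scg2 and Chgb. Against the GENCODE M21 gene spans given below, the Pcsk1 stretch lies before the gene, and those of Scg2 and Chgb lie inside it. The shorter core TGACG, searched on both strands and contained in the full CRE, was in 6 of the 9 windows and in 20.8% of all windows. In the Pcsk1 window 1 further core began 50 bases before the start. The AP-1 motif TGANTCA, on both strands, was in 1 of the 9 windows, that of Pcsk1n, and in 7.81% of all. A match describes the letters of the window and does not show that a factor binds there.

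Pcsk1 (ENSMUSG00000021587.5, chr13:75089826-75134861, plus strand, GENCODE M21 on GRCm38) encodes PC1/3, the convertase that makes the early cuts in many precursors. The tables give 1 count per gene, without its place in an exon or a UTR. In number order the 9 control animals had 26.0, 27.8, 29.8, 29.0, 31.9, 34.1, 38.9, 45.8 and 37.9 CPM, from animal 2 to animal 11. The 9 PLX5622 animals, from 25 to 35, had 29.5, 46.7, 36.6, 50.7, 50.6, 47.6, 59.1, 56.6 and 65.5 CPM. Of the PLX5622 libraries 7 lay above the highest control, and animals 25 and 27 lay within the control range, so that the groups overlapped. The means were 33.5 ± 6.4 CPM in controls and 49.2 ± 11.0 CPM with PLX5622 (SD, n = 9 each), a log2 fold change of 0.54 ± 0.12 (SE) or 45.3%. Pcsk1 was picked on this difference, which is therefore given without a test. Leaving out any 1 library kept it between 0.47 and 0.62. Across all genes 5 of 11051 (0.0452%) were called higher and 39 (0.353%) lower at a Benjamini-Hochberg adjusted p under 0.05 in edgeR's quasi-likelihood test. The number called higher was 2 without control 2 or 4 and 13 without PLX5622 25, the ends of its range over fits lacking a single library.

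**Figure D1:**
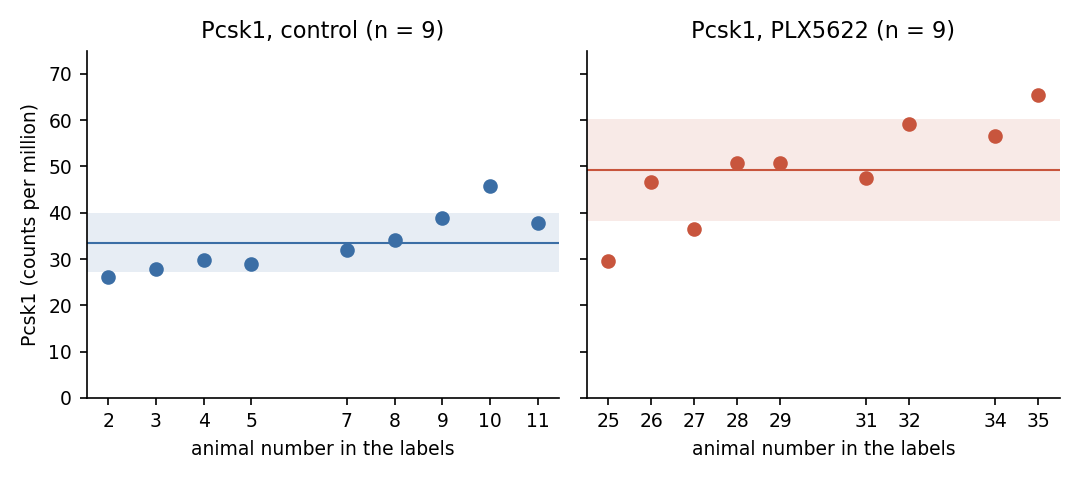
Pcsk1 level in CPM (vertical axis, linear from 0) against the animal number in the labels (horizontal axis), for control and PLX5622 libraries; points are single libraries, the line is the mean of the diet and the band 1 SD (n = 9 each). Levels ran from 26.0 to 45.8 CPM in controls and from 29.5 to 65.5 CPM with PLX5622, with higher values at higher numbers in both.

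Pcsk2 (ENSMUSG00000027419.9, chr2:143546156-143816285, plus strand) encodes PC2, the convertase that makes later cuts. Its level was 821 to 962 CPM in controls, with a median of 898 CPM, and 817 to 955 CPM with PLX5622, with a median of 887 CPM. The ranges coincided almost fully. The log2 fold change was -0.01 ± 0.04 (SE, adjusted p = 0.998), with a 95% interval from -5.74% to 5.35%. Annotated antisense genes cover 18.5% of the Pcsk2 span, and the strand setting of the counting is not given in the sources used here. Set against Pcsk2 in the same library, which cancels library scaling, there were 29.0 to 55.8 Pcsk1 counts per 1000 Pcsk2 counts in controls and 30.9 to 71.4 with PLX5622. The mean ratios were 37.8 ± 8.4 and 55.8 ± 13.5 (SD, n = 9 each), and 5 PLX5622 libraries lay above the highest control.

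Pcsk1n (ENSMUSG00000039278.10, chrX:7919822-7924410, plus strand) encodes proSAAS, an inhibitor of PC1/3 and itself a source of peptides. Controls ran from 227 to 333 CPM (median 267) and PLX5622 libraries from 237 to 301 CPM (median 263). The PLX5622 libraries all lay within the control range. The log2 fold change was -0.04 ± 0.06 (SE, adjusted p = 0.962), with a 95% interval from -9.67% to 5.22%.

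Cpe (ENSMUSG00000037852.8, chr8:64592542-64693054, minus strand) encodes carboxypeptidase E. Its level was 1149.5 to 1278 CPM in controls (median 1231) and 1151 to 1444 CPM with PLX5622 (median 1220). PLX5622 animal 35 stood above all other libraries. The log2 fold change was 0.03 ± 0.04 (SE, adjusted p = 0.959), with a 95% interval from -3.40% to 7.75%. Without animal 35 it was -0.0008. Pam (ENSMUSG00000026335.16, chr1:97795114-98095646, minus strand), the amidating enzyme, ran from 337 to 385 CPM in controls and from 335 to 391 CPM with PLX5622. Its log2 fold change was -0.03 ± 0.04 (SE, adjusted p = 0.958). Other annotated genes on the same strand cover 9.56% of the Pam span, where reads could be counted for either or for none.

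Scg2 (ENSMUSG00000050711.7, chr1:79434669-79440120, minus strand) encodes secretogranin II, the precursor of secretoneurin. It ran from 112 to 139 CPM in controls (median 119.5) and from 118 to 149 CPM with PLX5622 (median 133). In 8 of 9 controls it was at or below 122.6 CPM, and control 8 stood apart at 138.8 CPM. The PLX5622 values overlapped these and spread higher, with 3 above the highest control. The means were 120.8 ± 7.7 and 132.5 ± 12.3 CPM (SD, n = 9 each), a log2 fold change of 0.13 ± 0.06 (SE). The unadjusted p was 0.040 and the adjusted p 0.715, so the difference did not pass over all genes. Its 95% interval ran from 0.40% to 18.8%.

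Vgf (ENSMUSG00000037428.14, chr5:137026392-137033351, plus strand), a granin-like precursor induced by nerve growth factor, ran from 149 to 193 CPM in controls and from 152 to 201 CPM with PLX5622. The groups overlapped over most of their ranges. The log2 fold change was 0.08 ± 0.06 (SE, adjusted p = 0.868). Chgb (ENSMUSG00000027350.8, chr2:132781278-132795079, plus strand), chromogranin B, ran from 356 to 419 CPM and from 373 to 449 CPM, at 0.05 ± 0.04 (log2, SE, adjusted p = 0.897). Chga (ENSMUSG00000021194.6, chr12:102554969-102565028, plus strand), chromogranin A, ran from 81.4 to 116.6 CPM and from 83.0 to 117.0 CPM. Its log2 fold change was -0.05 ± 0.07 (SE, adjusted p = 0.959). Scg3 (ENSMUSG00000032181.7, chr9:75643189-75684056, minus strand), a granin that binds chromogranin A at the vesicle membrane, ran from 252 to 328 CPM in controls. With PLX5622 it ran from 283 to 303 CPM, inside the control range, with SDs of 26.2 and 7.1 CPM. Its log2 fold change was 0.01 ± 0.05 (SE, adjusted p = 0.998).

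**Figure D2:**
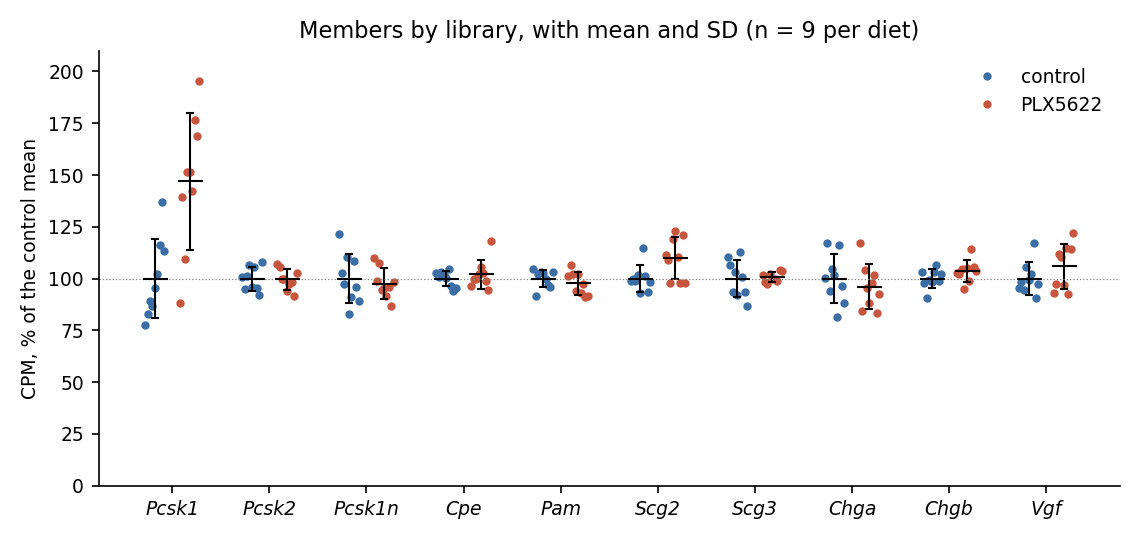
Level of each of the 10 genes in each library as a percentage of that gene's control mean (vertical axis, linear from 0), with blue points for control and red for PLX5622; black marks give mean and SD (n = 9 each). In all 10 genes the points of both diets overlap, and for Pcsk1 7 PLX5622 points lie above its highest control point.

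Of the 9 genes chosen by function 0 were called by diet, against 0.0452% of all tested genes called higher and 0.353% lower. DESeq2 and limma-voom also called 0 of the 9, and Scg2 was the only one with an unadjusted p under 0.05. Their values lay between -0.05 and 0.13, with a median of 0.01 and 5 of 9 above 0. The median of all 11051 genes was 0.0001, with 50.03% above 0. Over the 9 genes the 95% intervals reached from -12.6% at the lowest, for Chga, to 18.8% at the highest, for Scg2.

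**Figure D3:**
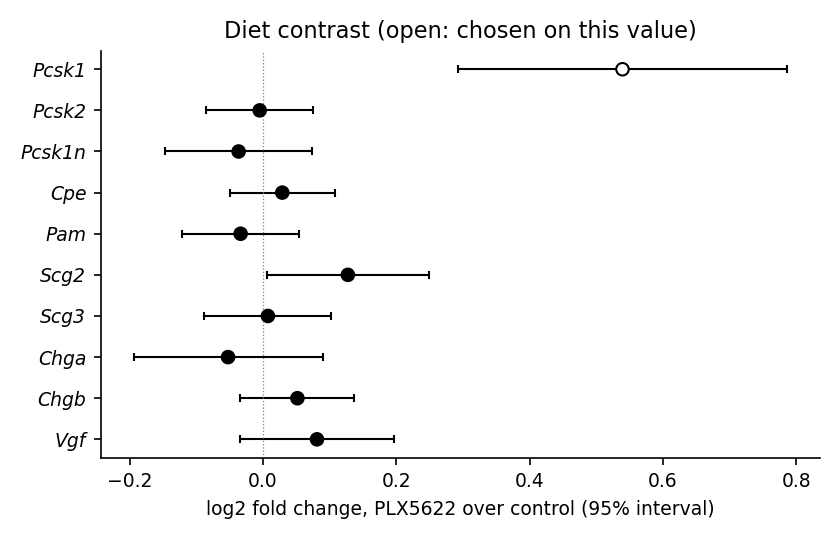
Log2 fold change of PLX5622 over control (horizontal axis) for each of the 10 genes, with 95% intervals from edgeR's quasi-likelihood fit over 18 libraries; the open point, Pcsk1, was chosen on this value. The interval drawn for Pcsk1 describes that chosen value and is no test of it. The other 9 points lie between -0.05 and 0.13.

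Levels were then examined against the animal number of the titles, within each diet, with 1 slope per diet in a fit over all genes. Numbers ran from 2 to 11 in controls and from 25 to 35 with PLX5622, so an effect of diet and one of a session that follows the numbering cannot be told apart. A running number in the names of the deposited tables, whose meaning the labels do not give, alternates between the diets from 25 to 42 and rises with animal number in each. The trend of Pcsk1 was known when the gene set was chosen. Its slope p-values and calls below therefore describe the trend and are no independent test of it.

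The Pcsk1 slope was 0.077 ± 0.024 per unit of animal number in controls (log2, SE, 95% interval 0.029 to 0.125, adjusted p = 0.360). With PLX5622 it was 0.083 ± 0.018 (95% interval 0.047 to 0.119, adjusted p = 0.034). The slopes differed by 0.006 ± 0.031 (SE, 95% interval -0.055 to 0.067, adjusted p = 0.995), so a call in 1 diet does not show a difference between diets. The PLX5622 call was lost without animal 25, 27, 32 or 35, at adjusted p of 0.583, 0.134, 0.070 and 0.207, and with DESeq2, at 0.234. Over its alternatives the adjusted p ran from 0.012 to 0.583, while the slope stayed above 0 in each of them. With 1 slope common to both diets, that of Pcsk1 was 0.081 ± 0.014 (SE, adjusted p = 0.00054), where 0.163% of all genes were called upward and 0.154% downward. In the same fit the diet difference of Pcsk1 was 0.53 ± 0.10 (log2, SE), beside 0.54 ± 0.12 without the slope.

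The share of counts from mitochondrial genes also moved with the number in controls, where it ran from 4.18% to 5.03%. Pearson's r was -0.84 (exact permutation p = 0.0068, adjusted 0.041 over 6 relations), -0.72 without the 2 animals farthest from the median number, and Spearman's rho was -0.80 (exact permutation p = 0.014, adjusted 0.083). With PLX5622 the share ran from 3.90% to 5.24% and r was -0.39 (exact permutation p = 0.298, adjusted 0.596), -0.33 without the 2 farthest, with a rho of -0.27 (exact permutation p = 0.493, adjusted 0.625). The part of this share in the Pcsk1 trend was not tested. For total counts r was 0.15 in controls and 0.08 with PLX5622, but 0.58 and -0.31 without the 2 farthest animals. For the summed neuronal markers it was -0.03 and -0.55, and -0.09 and -0.49 without them. None of these 4 relations passed, with adjusted p of at least 0.368 for r and 0.398 for rho (exact permutation).

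Among the other 9 genes the slopes ran from -0.031 to 0.007 in controls and from -0.022 to 0.024 with PLX5622 (log2 per unit of number). In controls 0 of the 10 genes were called, against 0.0271% of all genes in each direction, and 0 with DESeq2 or limma-voom. There Pcsk1, Pcsk1n and Scg3 had an unadjusted p under 0.05, as had 720 of all 11051 genes. With PLX5622 Pcsk1 alone of the 10 was called, against 0.0724% of all genes upward and 0.00905% downward. Pcsk1, Pcsk1n, Pam and Vgf had an unadjusted p under 0.05, as had 783 of all 11051 genes. The difference of the slopes was called for 0 of the 10 genes and for 0% of all genes by edgeR, DESeq2 and limma-voom, with 0 of the 10 and 499 of all genes at an unadjusted p under 0.05.

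Pcsk1n, Chga, Pam and Scg2 had negative slopes in both diets, the opposite sign to Pcsk1, with Scg2 near 0 in both. None of these slopes was called. Those of Chga were -0.017 ± 0.016 in controls and -0.022 ± 0.014 with PLX5622 (log2, SE). Those of Pam were -0.002 ± 0.010 and -0.018 ± 0.009, and the control slope kept its sign in 7 of 9 fits lacking a control library. Of the 9 genes other than Pcsk1, 3 had a slope above 0 in controls and 4 with PLX5622. In controls animal 2 had the highest Pcsk1n level, at 333 CPM, and animal 7 the lowest, at 227 CPM. With PLX5622 animal 25 was highest at 301 CPM and animal 34 lowest at 237 CPM. The slopes of Pcsk1n, the inhibitor of PC1/3, were -0.031 ± 0.012 and -0.021 ± 0.010 (log2, SE, adjusted p = 0.557 and 0.698), so neither passed. With 1 slope common to both diets it was -0.025 ± 0.008 (SE, adjusted p = 0.169). That common slope was called for 0 of the 9 genes other than Pcsk1, with Pcsk1n the only one of them at an unadjusted p under 0.05, where 1028 of all genes stood. There were 78.3 Pcsk1 counts per 1000 Pcsk1n counts in control 2 and 155 in control 11, and 98.2 in PLX5622 animal 25 and 244 in animal 35. Over all libraries the ratio ran from 78.3 to 174 in controls (median 131) and from 98.2 to 244 with PLX5622 (median 194). Control 2 and PLX5622 animals 25 and 35 thus stood at the ends of these ranges. The ratio holds the Pcsk1 trend that was known when the set was chosen, and its change with number was not tested.

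Vgf had a slope of 0.006 ± 0.013 in controls and 0.024 ± 0.012 with PLX5622 (log2, SE, adjusted p = 0.985 and 0.680). Scg2 and Chgb, which carry the same CRE as Pcsk1 in the windows printed above, were near 0 in both diets. The Scg2 slopes were -0.0002 ± 0.0145 and -0.004 ± 0.012, and the Chgb slopes 0.007 ± 0.010 and 0.006 ± 0.009 (log2, SE). The 95% interval of the Scg2 slope reached 0.029 in controls and 0.021 with PLX5622, and that of Chgb 0.027 and 0.024. Vgf had no window and was not searched for the CRE. The part of the CRE in any of these slopes was not tested.

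**Figure D4:**
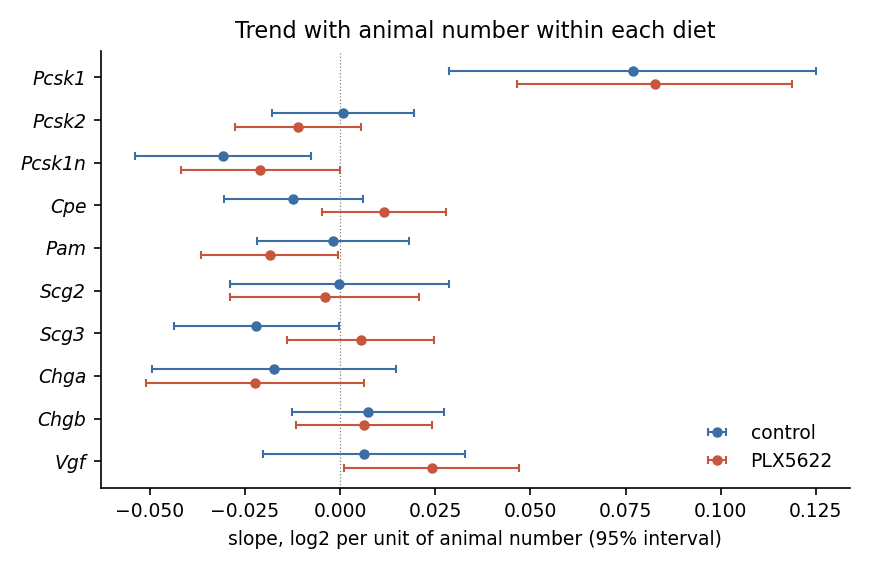
Slope of log2 level per unit of animal number (horizontal axis) for each of the 10 genes, blue for control and red for PLX5622, with 95% intervals from edgeR's quasi-likelihood fit (n = 9 per diet). Pcsk1 has slopes of 0.077 and 0.083, and the other 9 genes lie between -0.031 and 0.024.

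Genes with a pattern most like Pcsk1 were sought by Pearson's correlation of log2 CPM, after the mean of each diet was taken off, over 18 libraries and among 5757 other genes whose mean count reached 50. These correlations are descriptions without a p, and the libraries they are taken over share the trend with animal number, depth and scaling. The 8 highest were Egr4 (0.90) and Egr1 (0.86), zinc-finger factors induced by activity, Chrm1 (0.82), the M1 muscarinic receptor, Nr4a1 (0.79), an inducible nuclear receptor, Arc (0.78), a synaptic protein induced by activity, Mnt (0.78), a partner of MAX, the non-coding transcript 1700016P03Rik (0.78) and Mtmr9 (0.78), a myotubularin-related protein. Between the 5th and the 95th percentile the correlations of the ranked genes ran from -0.45 to 0.46. Of the other 9 dense-core vesicle genes, Vgf stood highest at 0.25 and Pcsk1n lowest at -0.54.

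**Figure D5:**
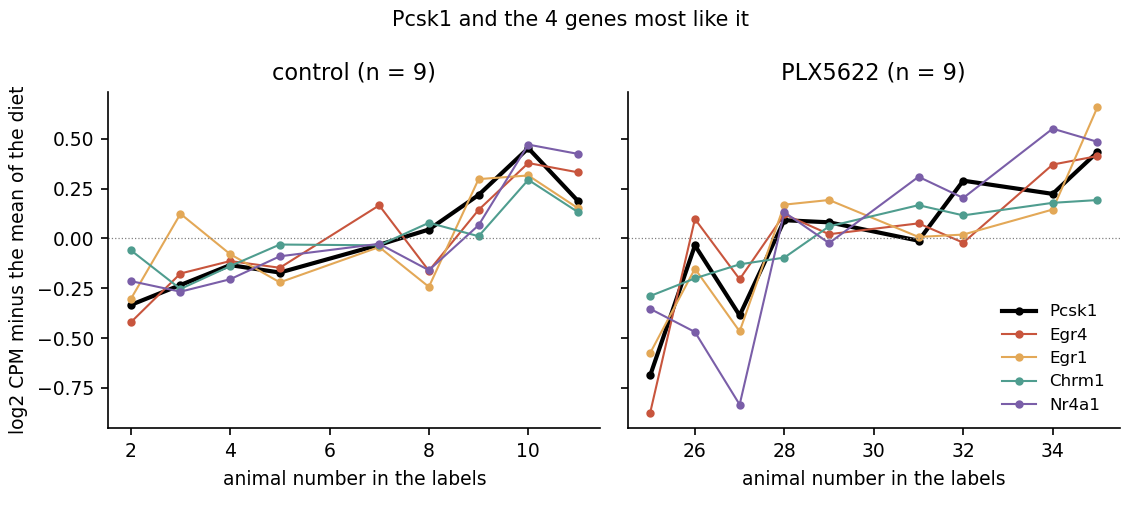
Log2 CPM minus the mean of the diet (vertical axis) against animal number (horizontal axis) for Pcsk1 (black) and the 4 genes most like it, Egr4, Egr1, Chrm1 and Nr4a1, in control and PLX5622 libraries (n = 9 each). The 4 genes were ranked on their correlation with Pcsk1 over these points, so their lines follow that of Pcsk1 by choice.

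The ranking did not use the difference by diet. By diet Egr4 and Egr1 were at 0.40 ± 0.13 and 0.49 ± 0.15 (log2, SE, adjusted p = 0.310 and 0.333 in edgeR's test). Nr4a1 and Arc were at 0.61 ± 0.19 and 0.98 ± 0.26 (adjusted p = 0.339 and 0.186), so none of these passed by diet alone. The transcript 1700016P03Rik was at 0.78 ± 0.24, Mnt at 0.15 ± 0.10, Chrm1 at 0.02 ± 0.07 and Mtmr9 at -0.02 ± 0.07. Chrm1 had slopes of 0.040 ± 0.014 in controls and 0.048 ± 0.012 with PLX5622. In the list of 21 activity-induced genes, chosen with earlier results known, 20 were tested. All 20 were above 0 by diet, against 50.03% of all genes, with a median of 0.42 (log2). Of the 20, Fosb and Junb were called higher, against 0.0452% of all genes. With number as a covariate 10 of the 20 were called higher, against 0.154% of all genes. The slopes of Fos, Arc and Btg2 were called upward in controls, the 3 genes called upward there among all 11051. Those of Arc, Nr4a1 and Fos were called upward with PLX5622, against 0.0724% of all genes. Without control 11 no gene was called upward in controls. Median slopes over the list were 0.056 (control) and 0.073 (PLX5622), and 19 and 18 of the 20 slopes were above 0. Of all genes 49.8% and 50.1% had a slope above 0.

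The wider machinery of peptide secretion was taken from lists of its own. Of 12 other convertases and processing enzymes 9 were tested, with 0 called by diet or in either trend and a median of -0.001 by diet (log2). Scg5, which encodes 7B2, the chaperone of PC2, was at 0.07 ± 0.05 (SE, adjusted p = 0.854), the aminopeptidase Rnpep at -0.13 ± 0.12 and carboxypeptidase D, Cpd, at 0.08 ± 0.07. Of 12 genes of vesicle formation and release 11 were tested and 0 were called, with a median of 0.01. The vesicle phosphatase-like protein Ptprn was at 0.06 ± 0.04, and Ccdc186 and Hid1, needed for vesicle maturation, were at 0.10 ± 0.08 and -0.08 ± 0.08.

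Of 18 neuropeptide precursors, the substrates of these enzymes, 11 were tested and 0 were called by diet or in either trend, with a median of -0.02 by diet. Prodynorphin, Pdyn, was at 0.30 ± 0.12 (log2, SE), with an unadjusted p of 0.012 and an adjusted p of 0.517. Npy was at -0.14 ± 0.11 and Adcyap1, which encodes PACAP, at 0.14 ± 0.15. The other 7 precursors, Cort, Nts, Pnoc, Cartpt, Gal, Trh and Nmb, had 2 to 170 counts over all 18 libraries and could not be tested at this depth.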

How the data were processed

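The authors deposited whole-number read counts per gene, 1 table per library. Per the submitters' processing notes, HTSeq 0.11.0, Bowtie2 2.3.4.3, R 3.5.1, FastQC 0.11.8 and, for DESeq2, version 1.10.1 were used, with GRCm38.p6 and mm10 named as builds. What each did, the strand setting and the feature counted were not given in the sources used here. Symbols were matched to identifiers without version (53620 of 54547). Genes were tested with edgeR 4.0.16 in R 4.3.3 (filterByExpr, minimum count 10 and total 15, TMM scaling, robust quasi-likelihood fit, Benjamini-Hochberg adjustment over 11051 genes), with diet alone or with diet and 1 slope of animal number per diet. CPM use TMM library sizes, and log2 CPM a prior count of 2. SEs are the log2 value over the root of F, and 95% intervals use the t distribution of the fit. Apart from the ratios of Pcsk1 counts to Pcsk2 or Pcsk1n counts within a library, levels were not compared between genes. No pair of libraries agreed within sampling noise (lowest chi-square per degree of freedom 1.129 over genes with at least 20 counts). Correlations of depth measures used all 362880 orders. P-values measure the spread between animals with separate numbers; cages, litters and sessions are not stated. The fits were also run on counts simulated from their own model. Such counts cannot show whether that model holds for these libraries.

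The members, lists and tests were chosen with earlier results of these data known. Named genes are the 10 members, genes of the fixed lists called in the diet contrast or a trend, otherwise up to 3 per list with the smallest p by diet, and the 8 most like Pcsk1. Genes of the marker lists for cell types are given mostly as counts, medians or sums; Ttr, Drd2 and Adora2a are named, Drd2 and Adora2a after their values were seen. The alternatives were RLE scaling, DESeq2 1.42.0, limma-voom (limma 3.58.1), other count filters, number as covariate, position in place of number, each diet alone and leaving out each library. Those for the difference of the slopes, and a block of adjacent running numbers, were added after seeing the data.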

Additional observations from a re-analysis of the deposited data

Results flagged for a closer look

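In 20 sets of 9 libraries (10 genes, 2 diets) 2 had a highest library farther from the next than Dixon's 95% critical value of 0.493 of the range allows, and chance flags about 1 set in 20. Cpe in PLX5622 animal 35 was at 1444 CPM, with the next library at 1290 CPM. Scg2 in control 8 was at 138.8 CPM, with the next at 122.6 CPM.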

How the results depend on the processing

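The animal numbers of the diets do not overlap and pair no libraries. Adjacent running numbers in the table names, whose meaning is not stated, form 9 pairs of a control and a PLX5622 library. The deviations of the pairs from their group means correlated over genes at -0.03 to 0.07, and 6 of 18 libraries correlated best with their own pair. These values were not set against chance and do not show that pairing is absent. The main fits did not use the pairs. Pcsk1 was higher with PLX5622 in 9 of 9 pairs, and with the pairs as a block its diet difference was 0.54 ± 0.10 (log2, SE). Pcsk1 was picked on its rise in these same libraries, so both values describe that choice and do not test it. The other 9 genes had 0 calls with that block, which called 20 genes higher and 44 lower over all genes. Of the 9 genes other than Pcsk1, 0 were called by diet under all alternatives run, and 0 of the 10 by slope in controls or by difference of slopes. With PLX5622 the number of the 10 genes with a called slope was 1. It became 0 with DESeq2 and ranged from 0 to 1 over fits lacking a single library. The Pcsk1 slope there was 0.082 with DESeq2 (adjusted p = 0.234) and 0.064 to 0.095 over fits lacking a single library. The cause was not tested. The diet difference of Pcsk1 was 0.51 to 0.55 (log2) under the other settings. No called value changed sign. Pcsk1 had 35 to 96 counts per library, which limits its precision. The other 9 genes ranged from Chga, at 92 to 198 counts, to Cpe, at 1209 to 2117. Over all genes the diet contrast called 44, but 112 with no count filter and 8 among genes with a mean count of 50 or more, where 0 were higher. Of the called genes 5 were higher and 39 lower, against 14 and 41 with limma-voom and 17 and 41 with number as a covariate. The number higher was 2 or 3 without control 2, 3 or 4 or PLX5622 34 or 35, 8 without control 8 and 13 without PLX5622 25. The slope was called for 6 genes in controls, against 3 with DESeq2, 18 with no filter, 3 at a mean of 50 and 0 (without control 11) to 45 (without control 9) over fits lacking a single library. With PLX5622 it was called for 9, against 4, 20 and 5 under those settings and 2 (without PLX5622 27) to 12 (without PLX5622 29). The filters change how many genes are tested; the cause of the other changes was not tested.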
